A study of Mus musculus with 20 samples.

Results

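The effect of a very-low-fat (VLF) diet was read in the liver of wild-type mice, as 5 individual livers on the VLF diet against 5 on chow, out of 20 arrays in the series. The comparison was defined by the sample titles alone: Scd1+/+ on the VLF diet (Harlan Teklad diet TD03045) against Scd1+/+ on chow, with each liver on its own Mouse 430 2.0 expression array. The other 10 arrays hold Scd1-/- livers on the same 2 diets, and the series design calls the diet a VLF-HC diet and looked for changes particular to knockout mice that eat it. The labels give both of these groups the genotype Scd1+/+ and name no transgene or deletion for them. The labels give no strain background, age, sex, length of feeding or time of sampling. Intensities below are normalized and on a linear scale, given as mean ± SD over n = 5 livers or for livers 1 to 5 in turn, where the number names a liver and sets no order. Changes are VLF minus chow on the log2 scale ± standard error, and a call is an adjusted p under 0.05 (limma, Benjamini-Hochberg over 45037 probe sets).

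A liver that receives much carbohydrate and little fat makes fatty acids itself. Glucose and fructose are broken down to pyruvate, and mitochondrial citrate is cut to acetyl-CoA in the cytosol. Acetyl-CoA carboxylase makes malonyl-CoA, fatty acid synthase builds palmitate, and elongases and desaturases, among them stearoyl-CoA desaturase 1 (Scd1), finish the chain. Insulin acting through SREBP-1c and sugar acting through ChREBP are the textbook switches of these genes, while dietary polyunsaturated fat holds them down.

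In wild-type liver genes of this route read higher on the VLF diet than on chow. Some detoxification, bile acid and complement genes and Csad, a gene of taurine synthesis, read lower. Array quality ratios also lay apart between the diets, so the 2 cannot be told apart here. Elovl6, which elongates palmitate, rose 4.82-fold from 525 ± 147 to 2743 ± 1465, and the apolipoprotein Apoa4 rose 4.81-fold from 1287 ± 241 to 6274 ± 1643. Fatty acid synthase, Fasn, rose 3.27-fold. Csad, which makes the taurine precursor hypotaurine, fell 6.71-fold from 1202 ± 384 to 175 ± 48.5. Enho, the gene of the secreted peptide adropin, fell 5.43-fold from 779 ± 222 to 147 ± 58.2. Of 16188 measured genes 287 were called (1.77%), 145 up (0.896%) and 142 down (0.877%); 2686 had an unadjusted p under 0.05. Changes of 2-fold or more made up 24 of the rises and 23 of the falls, and the median size of a called change was 0.49. The median over all measured genes was -0.017. The ranges of the 5 VLF and the 5 chow livers did not overlap in 240 of the 287 called genes and in 775 of all measured genes (4.79%). Another measured probe set existed for 146 of the called genes; it was called the same way in 48 of them and the opposite way in 0.

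**Figure D1:**
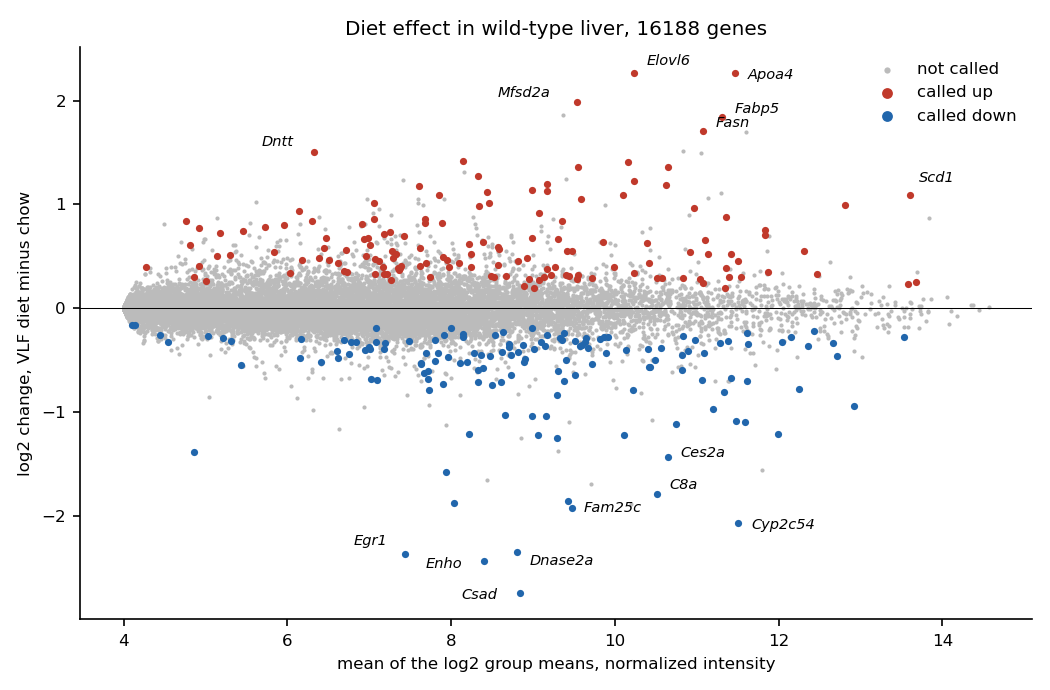
Change of each of the 16188 measured genes in wild-type liver (y axis, log2, VLF minus chow) against its mean log2 intensity over both diets (x axis). Red points are the 145 genes called up, blue the 142 called down and grey the rest; Elovl6 and Apoa4 lie highest and Csad lowest.

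The number of calls changed when single livers were left out and when an array quality ratio was added to the fit. Leaving out VLF liver 4 left 60 genes called up and 69 down, and chow liver 1 left 66 and 70. Leaving out VLF liver 1 left 71 and 75, and chow liver 2 left 84 and 92. In all, 109 of the 287 genes were called in all 10 such fits and 133 in at most 5. The 3' to 5' signal ratio of the actin control probe sets, which moves with RNA integrity and labelling, was 2.49 to 3.07 on chow and 1.95 to 2.39 on the VLF diet, and that of Gapdh was 1.42 to 1.71 and 1.23 to 1.41. Neither pair of ranges overlapped (exact two-sided permutation p = 0.00794 each, the smallest that 5 against 5 allows; 0.0714 after adjustment over the array measures). With the actin ratio added to the fit as a covariate only 12 genes were called, 10 of them among the 287: Apoa4, Gstp3, Scd1, Dntt, Ces2a, Fbxo21, C8b, Nlrp12, Enho and Slc23a2. All 287 kept their direction in that fit, 247 had an unadjusted p under 0.05 and the median ratio of the change to its value without the covariate was 0.884. Every other call given below was therefore lost with that covariate. Because the ratio lay apart between the diets, adding it also lowers the precision of the diet effect. Diet and array quality cannot be told apart by that fit. Arrays scaled on their hybridization controls gave 29 up and 21 down, and scaling to a common median without quantile normalization gave 118 up and 57 down (67.4% of calls up, against 50.5%); all 287 genes again kept their direction. Of the called genes named before the closing section, those that stayed called with hybridization-control scaling were Elovl6, Fasn, Acaca, Acacb, Me1, Scd1, Elovl5, Fads2, Pklr, Khk, Pgd, Tkt, Apoa4, Pltp, Fabp5, Fabp2, Acsl5, Mfsd2a, Dntt, Gstp3 and Onecut1 among the rises and Csad, Dnase2a, Enho, Fetub, Cyp2c54, Cyp2b10, Ces2a, Cyp1a2, Sult5a1, Abcc3, C8a, C8b, Fam25c and Fbxo21 among the falls. Fitted on the wild-type arrays alone, without the spread of the knockout arrays, all 287 genes kept their direction. Among the rises Acaca, Acacb, Me1, Gpam, Pygl, Onecut1, Cyp2c39, Uqcrb and Fth1 lost their call. The falls that lost their call in that fit were Nlrp12, Cyp27a1, Phyh, H6pd, H2-Eb1, C1ra, C9, Calr, Gstp1, Gss, Hspb1, Cyp2d9 and Slc23a2. The adjusted p of all 22 genes lay between 0.0518 (Acaca) and 0.12 (Gss).

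Scd1 matched the genotype labels, with 8607 ± 1597 and 18158 ± 1419 in wild-type chow and VLF livers against 45.9 ± 11.5 and 31.5 ± 3.97 in the knockout. The hepatocyte gene Alb was at 23258 to 24366 in the wild-type livers, and the fat cell gene Adipoq was at the floor of 16 in all of them. VLF liver 3 had Xist, the RNA of the inactive X chromosome, at the floor, against 1230.1 to 1923 in the other 9 wild-type livers, while the Y-linked genes Eif2s3y and Uty were at the floor in all 10. VLF liver 5 had a summed intensity of 4213 over the 9 measured pancreas markers against 716 to 1260.0 in the others. Without VLF livers 3 and 5 limma called 124 genes up and 111 down, 93 and 85 of them among the 145 and 142. Of the called genes named in the text before the closing section, Noct, Egr1, Pdia6, Calr, Gstm2, Baat, C1ra, Tsc22d3, Hspb1, Fth1, Lyz2, Cyp2d9, Uqcrb, Acacb, Mbl1 and Slc23a2 lost their call without those livers, at adjusted p from 0.0501 (Uqcrb) to 0.206 (Noct). Pnpla3 gained one (0.70, adjusted p = 0.00407). Fatty acid synthesis then had 4 calls up, and complement and bile acid synthesis had 3 down each. Summed macrophage markers were 10693 to 11876 on chow and 9022 to 10554 on the VLF diet, without overlap (exact permutation p = 0.00794; adjusted 0.0714). Of the 22 measured macrophage markers 1 was called, against 1.77% of all genes. A smaller share of these cells and less RNA per cell cannot be told apart in whole liver.

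**Figure D2:**
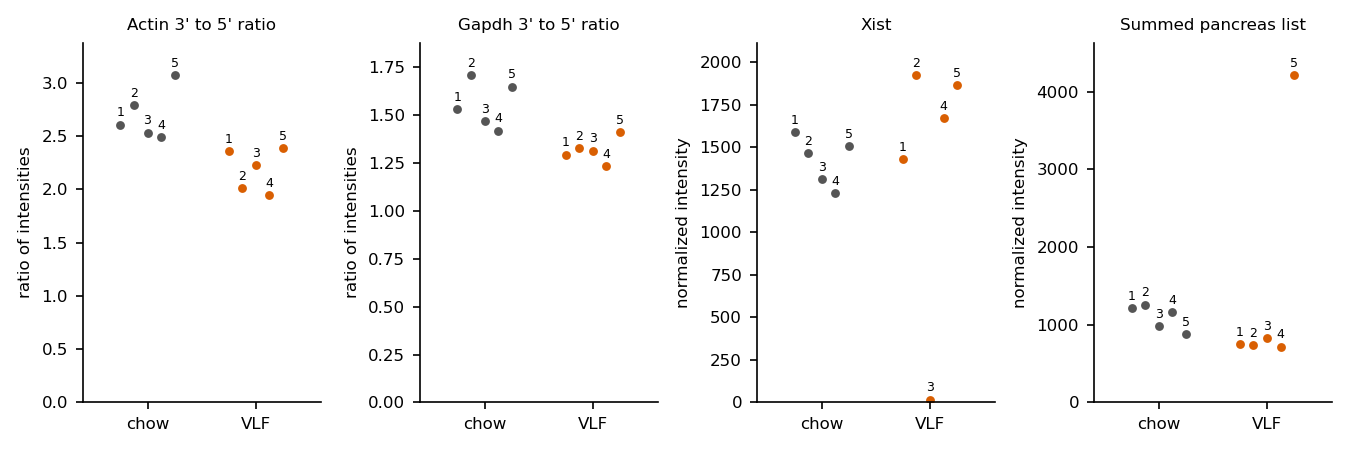
The actin and Gapdh 3' to 5' ratios, Xist intensity and summed pancreas marker intensity (y axes) of the 10 wild-type livers by diet (x axis), with the liver number above each point. The actin ratios on chow (2.49 to 3.07) lie above those on the VLF diet (1.95 to 2.39), and VLF livers 3 and 5 stand apart in Xist and in pancreas markers.

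Fatty acid synthesis had the largest median change of the 54 gene lists. Of 12 measured genes 5 were called up and 0 down, against 0.896% and 0.877% of all genes, and their median change was 1.25 against -0.017. Elovl6 read 497, 399, 694, 661 and 374 in the chow livers and 3981, 1433, 1737, 4649.7 and 1916 in the VLF livers. All 5 VLF livers lay above every chow liver, and VLF livers 1 and 4 were more than 2-fold above the other 3 (change 2.27 ± 0.29, adjusted p = 0.000880). Fasn, which assembles palmitate, read 1070.1, 834, 1404, 1678 and 867 in the chow livers and 4905, 2464, 2551, 6701 and 3290.2 in the VLF livers (1.71 ± 0.26, adjusted p = 0.00301). Its VLF livers 1 and 4 were again the highest, and the groups did not overlap. Acaca, the cytosolic acetyl-CoA carboxylase, read 714, 623, 714, 718 and 588 in the chow livers and 2512, 1156, 1226, 3329 and 1476 in the VLF livers (1.41 ± 0.24, adjusted p = 0.00551). The chow livers kept within a narrow band and the spread was on the VLF side; on the wild-type arrays alone the adjusted p was 0.0518. Me1, malic enzyme, which supplies NADPH, read 1053, 933, 1004, 1403 and 522 in the chow livers and 3317, 1511, 2039, 4348 and 1812 in the VLF livers (1.36 ± 0.27, adjusted p = 0.0183). Its groups did not overlap, but the call ended without VLF liver 1 or 4 with the adjusted p at up to 0.0607, and its second probe set was not called (0.94, adjusted p = 0.142). Acacb, the mitochondrial acetyl-CoA carboxylase, picked after its values were seen, was called at 1.14 ± 0.26 (adjusted p = 0.0396), with VLF liver 2 inside the chow range, and the call held in 2 of 10 fits with a liver left out. Thrsp, a lipogenic accessory protein (1.70, adjusted p = 0.0595), the acetyl-CoA synthetase Acss2 (1.49, adjusted p = 0.0765) and ATP citrate lyase Acly (1.07, adjusted p = 0.0775) had large estimates that missed the threshold. The count was 3 of 12 without VLF liver 1 or 4, up to 7 without another liver, and 0 with the actin covariate, where Elovl6 was at 1.99 (adjusted p = 0.198) and Fasn at 1.46 (0.361).

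**Figure D3:**
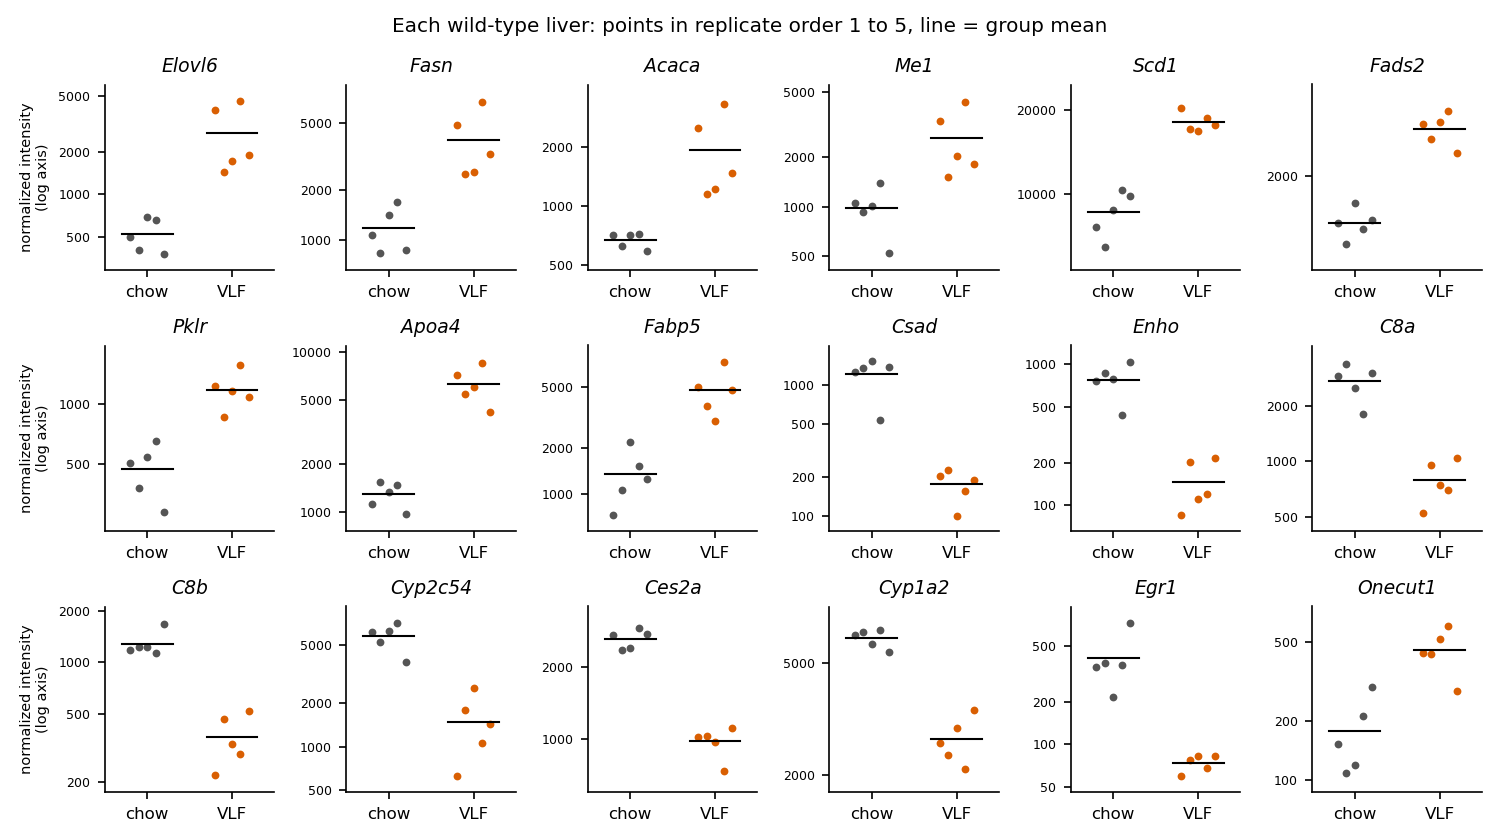
Normalized intensity (log y axis) of 18 genes in each of the 5 chow and 5 VLF wild-type livers, points in order of liver number and the line at the group mean. Elovl6, Fasn, Acaca and Me1 are highest in VLF liver 4, and in 17 of the 18 panels the groups do not overlap, Onecut1 being the exception. Most panels show genes that were picked for having no overlap, so this count is not a result. Of all measured genes 4.79% had no overlap.

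The 250 bases before the start of 3 of these genes are shown because the genes rose together and their promoters differ in the motifs they hold; sequences are from RefSeq (GRCm38.p6), written 5′ to 3′ on the gene's strand, with capitals for CCAAT boxes (CCAAT, or ATTGG where it lies on the other strand) and the E-box CACGTG. Fasn lies on the minus strand at chr11:120824548-120824797, Elovl6 on the plus strand at chr3:129532136-129532385 and Elovl5, an elongase of polyunsaturated fatty acids, on the plus strand at chr9:77917115-77917364.
Fasn: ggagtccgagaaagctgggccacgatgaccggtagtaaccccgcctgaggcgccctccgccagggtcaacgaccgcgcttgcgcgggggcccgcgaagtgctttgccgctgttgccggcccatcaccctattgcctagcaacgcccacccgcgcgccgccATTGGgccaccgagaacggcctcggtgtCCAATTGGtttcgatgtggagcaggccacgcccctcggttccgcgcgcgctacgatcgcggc
Elovl6: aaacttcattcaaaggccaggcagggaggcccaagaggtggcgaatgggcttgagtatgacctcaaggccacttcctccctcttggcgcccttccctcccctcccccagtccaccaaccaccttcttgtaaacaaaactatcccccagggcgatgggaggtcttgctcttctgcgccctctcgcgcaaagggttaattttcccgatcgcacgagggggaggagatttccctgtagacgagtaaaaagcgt
Elovl5: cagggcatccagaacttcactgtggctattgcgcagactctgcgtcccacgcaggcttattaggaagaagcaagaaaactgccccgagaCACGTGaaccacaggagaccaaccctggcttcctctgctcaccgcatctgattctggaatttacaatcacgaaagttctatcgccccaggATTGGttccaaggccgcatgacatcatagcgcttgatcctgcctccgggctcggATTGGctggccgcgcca
The Fasn window holds 3 CCAAT matches, 2 of which overlap, the Elovl5 window holds 2 and an E-box, and the Elovl6 window holds none of the motifs searched. Of the 10 called-up genes of fatty acid synthesis, desaturation and triglyceride synthesis, 9 were in the promoter table with 11 promoters. A CCAAT box lay in 6 of those 11, from 6 genes (Acacb, Elovl5, Fasn, Gpam, Me1 and Tecr), against 33.8% of all 32851 promoters, and CACGTG in 1 against 6.02%. The sterol element TCACNCCAC was in 0 of the 11 (1.05% of all promoters), as were the strict consensus of the LXR response element (0.0152%) and that of the PPAR response element (0.0335%). Both strands were searched, and a match or its absence in this window says only which letters are there.

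Desaturation and elongation genes rose in 4 of 14 measured members (against 0.896% of all genes) with 0 down, at a median of 0.39. Scd1, the gene deleted in the other genotype, read 7606, 6460.4, 8768, 10331 and 9868 in the chow livers and 20348, 17138, 16848, 18725 and 17731 in the VLF livers. Every VLF liver was above every chow liver by a wide gap, at a mean 2.14-fold higher (1.09 ± 0.16, adjusted p = 0.00206). Its dimmer second probe set changed by 2.67 ± 0.28, so the 2 probe sets differed in size, and the brighter one sits near the top of the array's range. Elovl5 read 5076, 4330.1, 5661, 5213 and 5175 in the chow livers and 11468, 9336, 10154, 11468 and 8553 in the VLF livers (1.00 ± 0.14, adjusted p = 0.00199), without overlap between diets. Fads2, the first desaturase on the route from essential to long polyunsaturated fatty acids, read 1426, 1231, 1651, 1374 and 1464 in the chow livers and 2883, 2594, 2939, 3177 and 2355 in the VLF livers (0.96 ± 0.17, adjusted p = 0.00728). Tecr, the enoyl-CoA reductase that closes each elongation cycle, rose by less and read 2452, 2224, 2496, 2695 and 2524 in the chow livers and 3605, 3127, 3278, 3724 and 3266 in the VLF livers (0.46 ± 0.064, adjusted p = 0.00159), with all 5 VLF livers above the chow range. All 4 were called in each of the 10 fits with a liver left out, and 3 of them with hybridization-control scaling, where Tecr had an adjusted p of 0.13. Fads1 (0.69, adjusted p = 0.121), Elovl2 (0.55, adjusted p = 0.0595) and Scd2, the desaturase of brain and fat (0.59, adjusted p = 0.508), were not called. Elovl3, which elongates very long saturated chains, was at -0.87 (adjusted p = 0.153).

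Of the 18 measured regulators of lipogenesis limma called 0, against 1.77% of all genes. The groups did not overlap in 3 of the 18, against 4.79% of all genes. Srebf1, which encodes SREBP-1, was 1 of these 3. Srebf1 read 1710.1, 1334, 1576, 1717 and 1267 in the chow livers and 1773, 2574, 2081, 2072 and 2855 in the VLF livers (0.57 ± 0.17, adjusted p = 0.125). VLF livers 2 and 5 were its highest, not the livers 1 and 4 in which Fasn and Elovl6 peaked. Mlxipl, which encodes ChREBP, read 867 ± 83.1 on chow and 794 ± 125 on the VLF diet (-0.14 ± 0.16, adjusted p = 0.970). The bile acid-responsive repressor Nr0b2 was at 0.86 (adjusted p = 0.135), Insig2, which holds SREBP in the endoplasmic reticulum, at 0.067 (adjusted p = 1) and the coactivator Ppargc1a at 0.083 (adjusted p = 1). Pnpla3, a lipid droplet acyl hydrolase, was at 0.48 ± 0.13 (adjusted p = 0.0809). These are messages; protein processing, by which SREBP is activated, was not measured.

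Some carbohydrate enzymes that feed fatty acid synthesis rose. In glycolysis and fructose use 2 of 18 genes were called up and 0 down, against 0.896% and 0.877% of all genes. The list median was 0.13. Pklr, liver pyruvate kinase, read 505, 376, 539, 649 and 284 in the chow livers and 1239, 858, 1162, 1579 and 1083 in the VLF livers (1.36 ± 0.21, adjusted p = 0.00323), and its other 2 probe sets were called up as well. Khk, ketohexokinase, which commits fructose, read 1859, 1912, 2043, 2140.1 and 1706 in the chow livers and 3972, 2861, 3636, 4108 and 3238 in the VLF livers (0.87 ± 0.11, adjusted p = 0.000880). Neither gene overlapped between diets. In the pentose phosphate route 2 of 7 rose and 1 fell: Pgd, phosphogluconate dehydrogenase, read 301, 331, 385, 402 and 446 in the chow livers and 1080.1, 646, 648, 1420.4 and 677 in the VLF livers (1.20 ± 0.20, adjusted p = 0.00568). Transketolase, Tkt, went from 1741 ± 135 to 2756 ± 371 (0.66 ± 0.079, adjusted p = 0.000459). VLF livers 1 and 4 were the highest for Pgd. H6pd, the dehydrogenase of the endoplasmic reticulum lumen, fell by 0.39 (adjusted p = 0.0161) and was not called without chow liver 1 or VLF liver 4 with the adjusted p at up to 0.0575. Pdha1, a subunit of pyruvate dehydrogenase, rose by 0.39 ± 0.077 (adjusted p = 0.0162; not called without VLF liver 1 or 4 with the adjusted p at up to 0.0539). Liver glycogen phosphorylase, Pygl, rose by 0.35 ± 0.075 (adjusted p = 0.0295; not called without chow liver 1 or 5 or VLF liver 1 or 4 with the adjusted p at up to 0.0936). Gpam, which starts glycerolipid synthesis, was the 1 gene called among 14 of triglyceride synthesis (0.52 ± 0.12, adjusted p = 0.0481), and its call ended without any 1 of 8 livers, all but chow 4 and VLF 3 with the adjusted p at up to 0.145. The second Gpam probe set was not called (0.47, adjusted p = 0.1145). Pck1, the gluconeogenic carboxykinase, was at 0.12 (adjusted p = 0.985).

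**Figure D4:**
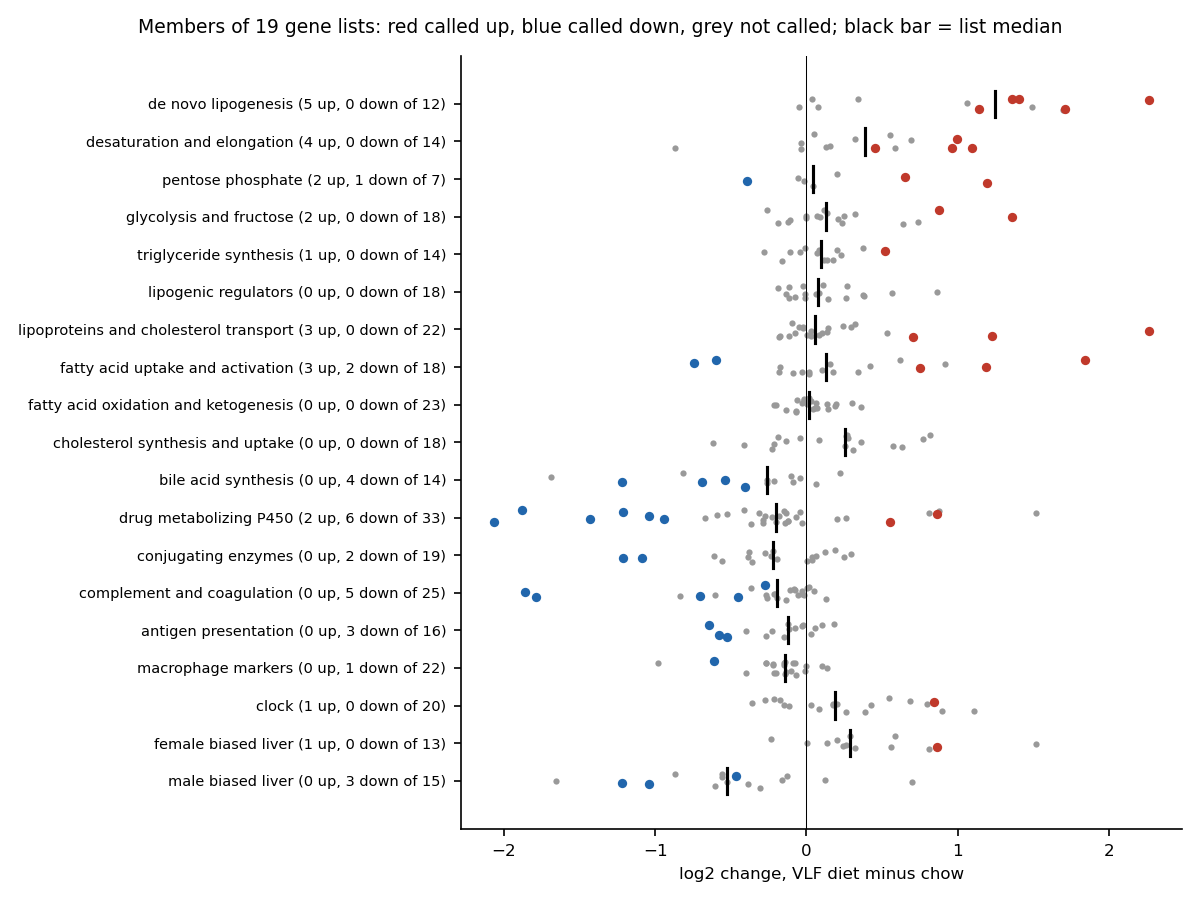
Change of each measured member of 19 gene lists (x axis, log2, VLF minus chow; one list per row), red where called up, blue where called down and grey otherwise, with a black bar at the list median and the counts beside the list name. The fatty acid synthesis median is 1.25, and most lists have medians close to the -0.017 of all genes.

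Lipoprotein and fatty acid binding genes supplied several of the largest rises. Apoa4, a lipoprotein component made by intestine and liver, read 1122, 1544, 1327, 1475 and 967 in the chow livers and 7193, 5459, 5979, 8513 and 4226 in the VLF livers (2.27 ± 0.22, adjusted p = 7.33e-05). The lowest VLF value was more than 2-fold above the highest chow value. The second probe set rose by 2.53, and the call held with the actin covariate (1.80, adjusted p = 0.0486). Apoc2, the cofactor of lipoprotein lipase, rose from 2865 ± 285 to 4665 ± 361 (0.71 ± 0.11, adjusted p = 0.00368). Pltp, the phospholipid transfer protein, read 690.1, 589, 1121, 903 and 628 in the chow livers and 2282, 1855, 1074, 2188 and 1811 in the VLF livers (1.23 ± 0.21, adjusted p = 0.00583). Its VLF liver 3 lay within the chow range. These were 3 of 22 genes of lipoprotein and cholesterol transport, with 0 down, against 0.896% up and 0.877% down of all genes. Apob, Mttp and Apoa1 were at 0.14, 0.32 and -0.020 without a call. Among 18 fatty acid uptake and activation genes 3 rose and 2 fell. Fabp5, a fatty acid binding protein of skin and macrophages that liver also makes, read 740.2, 1067, 2184, 1534 and 1260.0 in the chow livers and 5014, 3792, 3001, 7272 and 4792 in the VLF livers (1.84 ± 0.31, adjusted p = 0.00592), with chow liver 3 nearest to the VLF livers. Fabp2, the intestinal fatty acid binding protein, rose from 1048 ± 160.2 to 2376 ± 204 (1.19 ± 0.17, adjusted p = 0.00181). The acyl-CoA synthetase Acsl5 rose from 2786 ± 228 to 4739 ± 858 (0.75 ± 0.12, adjusted p = 0.00336). The medium-chain synthetases went the other way: Acsm1 fell from 2209 ± 139 to 1469 ± 181 (-0.60 ± 0.082, adjusted p = 0.00143). Acsm5, picked after its values were seen, fell by 0.74 (adjusted p = 0.00989). Mfsd2a, a carrier of lysophospholipids, was the third largest rise without overlap and read 299, 437, 439, 419 and 256 in the chow livers and 1149, 1200.4, 1887, 2023 and 1168 in the VLF livers (1.99 ± 0.35, adjusted p = 0.00808).

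Fatty acid oxidation and cholesterol synthesis did not supply calls. Of 23 oxidation and ketogenesis genes limma called 0, against 1.77% of all genes. At that share a list of this size can hold no call. The groups did not overlap in 1 of the 23, against 4.79% of all genes, and the median was 0.015. Cpt1a, the carnitine palmitoyltransferase of liver, read 1784, 1508, 2055, 1689 and 1486 in the chow livers and 1933, 2599, 2611, 2230.0 and 1649 in the VLF livers (0.36 ± 0.12, adjusted p = 0.194), a higher mean with overlapping groups. Pdk4 (0.30, adjusted p = 1) and Fgf21 (0.14, adjusted p = 1), genes of the fasting response, were low on both diets. Their levels were 24.3 ± 2.77 and 32.1 ± 13.9 for Pdk4 and 66.6 ± 10.8 and 72.9 ± 8.76 for Fgf21. Of 18 cholesterol synthesis and uptake genes 0 were called, with changes from -0.61 (Msmo1) to 0.82 (Mvd) and a median of 0.26. Peroxisomal and omega oxidation had 1 fall in 23: Phyh, which starts the breakdown of phytanic acid, went from 5937 ± 321 to 4626 ± 484 (-0.36 ± 0.068, adjusted p = 0.0125). The lipid droplet and lipase list had 0 of 17 called. A missing call here does not show that a gene was unaffected, with standard errors such as 0.12 for Cpt1a and 0.39 for Pdk4.

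The taurine synthesis gene Csad and the adropin gene Enho had the deepest falls. Csad read 1248, 1344, 1513, 536 and 1368 in the chow livers and 203, 226, 101, 156 and 189 in the VLF livers (-2.75 ± 0.34, adjusted p = 0.000514). Chow liver 4 was well below the other chow livers, and even that liver was above all 5 VLF livers. Dnase2a, a lysosomal nuclease read from a single probe set, read 1168, 973, 1192, 526 and 1134 in the chow livers and 233, 267, 92.7, 189 and 215 in the VLF livers (-2.35 ± 0.35, adjusted p = 0.00233). It followed Csad from liver to liver: once each group was centred, the 2 genes' log2 values differed by at most 0.226 over the chow livers and 0.279 over the VLF livers. Such tracking was not particular to this pair. The largest gaps were 0.195 and 0.288 for Fasn and Elovl6 and 0.391 and 0.136 for C8a and C8b. The Dnase2a probe set is of the _x_at type, so the gene is absent from the fit without _x_at and _s_at probe sets, and no other probe set checks it. Gss, glutathione synthetase, fell by 0.71 (adjusted p = 0.0230) with chow liver 4 inside the VLF range. Its call ended without chow liver 1 or 2 or VLF liver 1 with the adjusted p at up to 0.0752. Thus 2 of 12 sulfur amino acid and taurine genes were called down, against 0.877% of all genes. Cth, which makes cysteine, was at -0.70 (adjusted p = 0.124) and Cdo1, the enzyme before Csad, at 0.050 (adjusted p = 1). Enho read 766, 869, 782, 436 and 1045 in the chow livers and 85.1, 202, 111, 121 and 216 in the VLF livers (-2.44 ± 0.25, adjusted p = 0.000102). A second probe set fell by 2.48 while the 2 dimmest changed by -0.021 and -0.049. Fetub, a secreted fetuin, fell from 3394 ± 94.3 to 1958 ± 289 (-0.81 ± 0.13, adjusted p = 0.00429), which made 2 falls among 16 secreted liver factors.

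Drug-metabolizing genes fell more often than they rose. Of 33 measured P450 and related genes 6 were called down and 2 up, against 0.877% and 0.896% of all genes. A negative estimate was found in 26 of the 33 (median -0.20) and in 9053 of all 16188 measured genes. Cyp2c54 read 6177, 5259, 6243, 7083 and 3836 in the chow livers and 629, 1775, 2528, 1052 and 1432 in the VLF livers (-2.07 ± 0.29, adjusted p = 0.00151). VLF livers 1 and 4, in which Fasn was highest, were its lowest. Cyp2b10, the usual target of the receptor CAR, read 361, 249, 349.6, 734 and 947 in the chow livers and 96.3, 109, 123, 135 and 184 in the VLF livers (-1.88 ± 0.34, adjusted p = 0.00958). Its chow livers ranged nearly 4-fold while the VLF livers stayed low. Ces2a, a carboxylesterase, read 2734, 2352, 2405, 2906 and 2739 in the chow livers and 1027, 1037, 975, 739.9 and 1119 in the VLF livers (-1.43 ± 0.14, adjusted p = 7.33e-05), with tight groups and a call that held with the actin covariate (-1.24, adjusted p = 0.0486). Cyp1a2, the caffeine-oxidizing P450, fell from 6151 ± 449 to 2683 ± 512 (-1.21 ± 0.18, adjusted p = 0.00271). Cyp2c50, picked after its values were seen, fell by 0.94 (adjusted p = 0.00471). Cyp2d9 fell by 1.04 (adjusted p = 0.0432) and was not called without any 1 of 9 livers, all but chow 5 with the adjusted p at up to 0.108. Cyp3a44 rose and read 107, 80.4, 104, 105 and 96.8 in the chow livers and 172, 175, 164, 227 and 162 in the VLF livers (0.86 ± 0.14, adjusted p = 0.00389). The other rise was Cyp2c39, picked after its values were seen (0.56, adjusted p = 0.0233; called in 5 of 10 fits with a liver left out). The abundant Cyp2e1 and Cyp3a11 were at -0.12 and -0.18 without a call. Among 19 conjugating enzymes 2 sulfotransferases fell, Sult5a1 from 459 ± 108 to 194 ± 17.8 (-1.21 ± 0.19, adjusted p = 0.00387) and Sult2a8 from 4141 ± 666 to 1972 ± 454 (-1.09 ± 0.19, adjusted p = 0.00640). Scaling on hybridization controls kept 4 of the P450 falls, 0 of the rises and 1 of the sulfotransferase falls.

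Bile acid genes had 4 falls among 14 and 0 rises, against 0.877% and 0.896% of all genes, with a median of -0.26. Cyp7b1, the oxysterol hydroxylase of the alternative route, read 861, 1083, 909, 917 and 408 in the chow livers and 319, 331, 301, 339 and 427 in the VLF livers (-1.22 ± 0.21, adjusted p = 0.00758). Chow liver 5 was the only chow liver inside the VLF range. Cyp27a1, which oxidizes the sterol side chain, fell from 2737 ± 497 to 1678 ± 199.8 (-0.69 ± 0.13, adjusted p = 0.0107). Baat, which joins bile acids to taurine or glycine, fell from 1014 ± 46.4 to 703 ± 90.8 (-0.54 ± 0.11, adjusted p = 0.0291). Acox2, which shortens the side chain and was picked after its values were seen, fell by 0.41 (adjusted p = 0.0331). The Baat call ended without any 1 of 7 livers, all but chow 4 and VLF 2 and 3 with the adjusted p at up to 0.0939, and Acox2 was called in 2 of 10 such fits. Cyp7a1, the rate-limiting enzyme of the classical route, had the lowest estimate of the list without a call: it read 1184, 588, 2919, 1664 and 1279 in the chow livers and 183, 437, 695, 369 and 601 in the VLF livers (-1.69 ± 0.48, adjusted p = 0.107). Its chow livers spread from 588 to 2919, and the groups overlapped. Cyp8b1, which directs synthesis to cholic acid, was at -0.81 ± 0.41 (adjusted p = 0.459). Abcc3, which exports bile salts and glucuronides to blood, was the 1 called gene of 16 bile acid and organic ion transporters, at 835 ± 68.9 on chow and 471 ± 72.4 on the VLF diet (-0.84 ± 0.12, adjusted p = 0.00230). The count of bile acid falls was 2 without any 1 of chow livers 1, 3 and 5 and VLF livers 1, 4 and 5, 2 with median scaling and 0 with hybridization-control scaling.

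The complement falls included 3 genes of the membrane attack complex. Of 25 measured complement and coagulation genes 5 were called down and 0 up (background 0.877% and 0.896%; median -0.19). C8b read 1179, 1227, 1218, 1128 and 1659.9 in the chow livers and 221, 466, 333, 293 and 522 in the VLF livers (-1.86 ± 0.20, adjusted p = 0.000123). C8a, the partner chain of the same component, read 2901, 3354, 2499, 1799 and 3018 in the chow livers and 525, 957, 738, 695 and 1044 in the VLF livers (-1.79 ± 0.26, adjusted p = 0.00199). Every VLF liver of both genes was below the lowest chow liver, and VLF liver 1 was the lowest of both. The other 3 were C9 (-0.71, adjusted p = 0.0410), the mannose-binding lectin Mbl1 (-0.45, adjusted p = 0.0398) and C1ra (-0.27, adjusted p = 0.0326). Their calls were less stable: C9 and Mbl1, picked after their values were seen, were called in 2 and 2 of 10 fits with a liver left out. C1ra was not called without any 1 of 6 livers, all but chow 4 and 5 and VLF 2 and 5 with the adjusted p at up to 0.110. The list count was 2 without chow liver 1 or VLF liver 1, 3 or 4, 2 under either other scaling and 1, C8b, with the actin covariate. Hc, C6 and the prothrombin gene F2 were at -0.21, -0.61 and -0.027 without a call, and of 24 acute phase genes limma called 0, Saa1 being at -1.25 (adjusted p = 0.376).

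The genes Cd74, H2-Eb1 and H2-Ab1 of class II antigen presentation fell by less than 2-fold. Cd74, the invariant chain, read 582, 545, 430.1, 549.7 and 548 in the chow livers and 299.9, 366, 369, 278 and 395 in the VLF livers (-0.64 ± 0.12, adjusted p = 0.0148), and its groups did not overlap. H2-Eb1 fell from 407 ± 50.9 to 274 ± 46.3 (-0.58 ± 0.11, adjusted p = 0.0123) and H2-Ab1 from 350.0 ± 25.9 to 245 ± 35.9 (-0.52 ± 0.11, adjusted p = 0.0240). They were the 3 called of 16, against 0.877% of all genes called down. The other 2 probe sets of H2-Ab1 were not called (-0.37 and -0.39, adjusted p = 0.177 and 0.105). The class II genes H2-Aa (-0.40, adjusted p = 0.0949), H2-DMa (-0.27, adjusted p = 0.0947) and Ciita (0.056, adjusted p = 1) were not called, nor were the class I genes H2-K1 and H2-D1 (0.032 and -0.072). Cd74 was not called without chow liver 1 or VLF liver 1 or 4 with the adjusted p at up to 0.0520, H2-Ab1 not without chow liver 1 or 2 or VLF liver 1 or 4 with the adjusted p at up to 0.0790, and 1 of the list was called with median scaling and 0 with hybridization-control scaling. Lyz2, lysozyme of macrophages and neutrophils, fell from 779.8 ± 99.9 to 509.7 ± 52.0 (-0.61 ± 0.14, adjusted p = 0.0447; not called without any 1 of 8 livers, all but chow 2 and VLF 2 with the adjusted p at up to 0.114) and was the single call among the 22 macrophage markers, whose summed signal moved the same way as these genes. The defining Kupffer genes Clec4f and Csf1r were at -0.14 and -0.14. The part of this signal in these falls was not tested.

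Sex-biased, clock and hormone-responsive lists gave between 1 and 3 calls each. Of 13 female-biased liver genes Cyp3a44 alone rose, and 12 of 13 had a positive estimate (median 0.29). Of 15 male-biased genes Cyp7b1, Cyp2d9 and Gstp1 fell and 13 had a negative estimate (median -0.52). Of all 16188 measured genes 7096 had a positive and 9053 a negative estimate, and 0.896% were called up and 0.877% down. The labels give no sex. Xist was above the floor in 5 chow and 4 VLF livers, and Eif2s3y and Uty were at the floor in all. Gstp1, a glutathione transferase, fell from 7884 ± 1106 to 5707 ± 649 (-0.46 ± 0.091, adjusted p = 0.0168). Onecut1, a hepatocyte transcription factor, read 153, 109, 119, 210.2 and 294 in the chow livers and 438, 437, 519, 602 and 282 in the VLF livers (1.42 ± 0.25, adjusted p = 0.00909). Chow liver 5 was above VLF liver 5, the one overlap. Per2, a core clock gene, read 65.1, 59.7, 60.5, 64.3 and 45.1 in the chow livers and 107, 124, 88.0, 88.3 and 122 in the VLF livers (0.84 ± 0.14, adjusted p = 0.00583) and was the 1 call in 20 clock genes. Noct, a phosphatase with a daily rhythm in liver, read 205, 174, 201, 195 and 228 in the chow livers and 299.6, 401, 708, 434 and 713 in the VLF livers (1.27 ± 0.30, adjusted p = 0.0449), without overlap but not called without any 1 of 9 livers, all but VLF 1 with the adjusted p at up to 0.100. Dbp (0.90, adjusted p = 0.201) and Arntl (-0.17, adjusted p = 0.925) were not called. Tsc22d3, a glucocorticoid-induced leucine zipper protein, rose by 0.67 ± 0.15 (adjusted p = 0.0368; not called without any 1 of 7 livers, all but chow 2 and 3 and VLF 1 with the adjusted p at up to 0.103), while the metallothioneins Mt1 and Mt2 were at -1.56 and -1.89 (adjusted p = 0.0713 and 0.0538). The labels give no time of sampling, so a diet difference and a difference in hour cannot be told apart for these genes.

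Stress and redox lists had few calls, to be set against 0.896% up and 0.877% down over all genes. Gpx1, the main glutathione peroxidase, fell by a small step, from 13008 ± 558 to 10698 ± 279 (-0.28 ± 0.037, adjusted p = 0.000942), with no overlap, but had an adjusted p of 0.592 with hybridization-control scaling. With Gstp1 it made 2 falls of 24 genes of the NRF2 and glutathione list, and Gstm2 was the 1 rise (0.84 ± 0.19, adjusted p = 0.0432; not called without any 1 of 9 livers, all but VLF 2 with the adjusted p at up to 0.136). Of 20 ER chaperones the disulfide isomerase Pdia6 (-0.44 ± 0.084, adjusted p = 0.0154) and calreticulin, Calr (-0.33 ± 0.070, adjusted p = 0.0284; not called without chow liver 1, 2 or 4 or VLF liver 1 or 4 with the adjusted p at up to 0.0939), fell. Neither was called under median scaling, under hybridization-control scaling or without VLF livers 3 and 5. The other probe set of Pdia6 (-0.16, adjusted p = 0.659) and those of Calr (-0.29 and -0.33, adjusted p = 0.0703 and 0.0735) were not called. The heat shock protein Hspb1 fell by 1.04 ± 0.24 (adjusted p = 0.0402; not called without any 1 of 6 livers, all but chow 4 and 5 and VLF 2 and 5 with the adjusted p at up to 0.119). Egr1, an immediate early transcription factor, had the largest fall after Csad and Enho and read 355, 376, 217, 363 and 728 in the chow livers and 59.3, 76.8, 82.1, 68.1 and 82.5 in the VLF livers (-2.37 ± 0.51, adjusted p = 0.0297). The groups were far apart but the call ended without any 1 of 8 livers, all but chow 3 and VLF 5 with the adjusted p at up to 0.0829, and 0 of the other 15 immediate early genes were called, with Fos at 0.11 and Junb at -0.65. The ferritin heavy chain Fth1 (0.23 ± 0.054, adjusted p = 0.0442; not called without any 1 of 8 livers, all but chow 4 and VLF 5 with the adjusted p at up to 0.144) and the respiratory chain subunit Uqcrb (0.25 ± 0.056, adjusted p = 0.0326; not called without any 1 of 7 livers, all but chow 4 and 5 and VLF 5 with the adjusted p at up to 0.111) rose slightly. The second probe sets of Fth1 (0.14, adjusted p = 0.166) and Uqcrb (0.039) were not called. Hamp, which encodes the iron hormone hepcidin, was at 0.35 (adjusted p = 0.381). Of 20 ATF4 and amino acid response genes, 28 cell cycle genes, 27 interferon response genes and 25 stellate cell and matrix markers limma called 0 in each.

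Outside the lists Dntt, Fam25c and Nlrp12 completed the largest changes. Dntt, the template-free DNA polymerase of lymphocyte receptor rearrangement, read 39.2, 43.4, 55.0, 52.1 and 46.5 in the chow livers and 152, 120.4, 116, 174 and 113 in the VLF livers (1.51 ± 0.14, adjusted p = 7.33e-05). Both groups were tight, and the call held with the actin covariate (1.28, adjusted p = 0.0486). The lymphocyte genes Cd3e and Cd79a were at 110 to 152 and 37.2 to 51.4 on chow and 97.4 to 143 and 40.5 to 44.0 on the VLF diet. Fam25c read 1412, 1546, 1233, 1172 and 1420.4 in the chow livers and 296, 505, 283, 260.5 and 509.9 in the VLF livers (-1.93 ± 0.29, adjusted p = 0.00248). Nlrp12, a NOD-like receptor, read 397, 555, 523, 269.6 and 335 in the chow livers and 79.8, 163, 174, 224 and 85.7 in the VLF livers (-1.58 ± 0.29, adjusted p = 0.0102), with VLF livers 1 and 5 lowest and chow liver 4 closest to the VLF range.

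The VLF livers differed in how often each held the most extreme value of a called gene. Of the 145 genes called up, VLF liver 4 held the highest VLF value in 85 and VLF liver 1 in 32, against 3 to 15 for the other 3. Of the 142 called down, VLF liver 4 held the lowest in 56 and VLF liver 1 in 37, against 7 to 23. On chow, liver 4 was the highest in 50 of the rises and the lowest in 50 of the falls. The same counts over all measured genes were not made. Of the wild-type arrays, that of VLF liver 4 also had the lowest actin ratio (1.95), Gapdh ratio (1.23) and median before scaling (33.64). It had the largest share of values under the floor (28.8%). The part of array quality in these ranks was not tested. In a principal component analysis of the 10 livers the first component held 31.2% of the variance and put all chow livers below 0 (-26.0 to -9.47) and all VLF livers above (6.31 to 39.1), with VLF liver 4 at the far end. Chow liver 5 was the chow liver nearest to the VLF livers on this component, at -9.47, and chow liver 4 was at -22.1. The second component held 17.1% and did not separate the diets.

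On the same diet, 7 of the 12 fatty acid synthesis genes fell in Scd1-/- liver and 0 rose. In the knockout 39.1% of measured genes were called for diet (19.2% up, 19.9% down), and the diet effect differed between genotypes in 27.2%. Of the 145 genes that rose in wild type, 40 rose in the knockout, 52 fell and 53 were not called; of the 142 that fell, 84 fell, 27 rose and 31 were not called. The difference itself was called in 98 of the 145 and 84 of the 142. These genes were picked for a wild-type diet effect, which is part of the difference, so the counts cannot be compared with the 27.2%. The 98 include Scd1, whose knockout signal is near the array median of 34.43 and carries no diet effect of an intact gene. Elovl6 fell by 1.58 ± 0.29 in the knockout against its rise of 2.27 ± 0.29 in wild type, a difference of 3.85 ± 0.41 (adjusted p = 1.76e-06). Fasn fell by 1.42 ± 0.26 there (difference 3.13 ± 0.37, adjusted p = 5.80e-06). Fads2 fell by 0.97 ± 0.17 (difference 1.94 ± 0.24, adjusted p = 8.29e-06). Fabp2 fell by 0.58 ± 0.17 (difference 1.77 ± 0.24, adjusted p = 2.43e-05). Of the other wild-type calls of this list, Acacb fell by 0.78 ± 0.26 in the knockout, while Acaca (-0.59 ± 0.24, adjusted p = 0.0761) and Me1 (-0.52 ± 0.27, adjusted p = 0.192) were not called there; the difference between genotypes was called in 11 of the 12. Pgd and Tkt rose in the knockout as well, by 2.69 ± 0.20 and 1.08 ± 0.079, and further than in wild type (differences -1.49 ± 0.28 and -0.43 ± 0.11, adjusted p = 0.000758 and 0.0102). Srebf1, not called in wild type, fell by 1.24 ± 0.17 in the knockout (difference 1.80 ± 0.24, adjusted p = 1.86e-05). For other genes both genotypes changed the same way between the diets, and the difference missed the threshold. That does not show that the effects are equal. Among them Apoa4 rose by 2.87 ± 0.22 in the knockout (difference -0.60 ± 0.31, adjusted p = 0.238) and Fabp5 by 2.01 ± 0.31 (difference -0.16 ± 0.44, adjusted p = 1). Enho fell by 2.54 ± 0.25 (difference 0.096 ± 0.35, adjusted p = 1) and C8b fell by 2.04 ± 0.20 (difference 0.18 ± 0.28, adjusted p = 0.913). The falls of Cyp2c54 (-5.05 ± 0.29) and Sult2a8 (-6.37 ± 0.19) were larger in the knockout, with differences of 2.98 ± 0.41 (adjusted p = 2.73e-05) and 5.28 ± 0.26 (adjusted p = 1.68e-10). Csad was 201 ± 91.2 on chow and 143 ± 56.2 on the VLF diet in the knockout, near the 175 ± 48.5 of wild-type VLF livers already on chow, and its difference was -2.28 ± 0.47 (adjusted p = 0.00166). Dnase2a had the same layout, at 221 ± 105 and 163 ± 74.6. Cyp2d9, Gstp1, Hspb1 and Lyz2 fell in wild type and rose in the knockout by 1.90, 1.12, 1.26 and 1.25, and the difference was called for each (adjusted p = 4.45e-06, 7.06e-08, 5.46e-05 and 2.00e-06). The knockout arrays had actin ratios of 2.10 to 2.37 on chow and 1.69 to 1.96 on the VLF diet and summed macrophage markers of 10848 to 16240.1 and 28502 to 40429.6; their part in these differences was not tested.

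**Figure D5:**
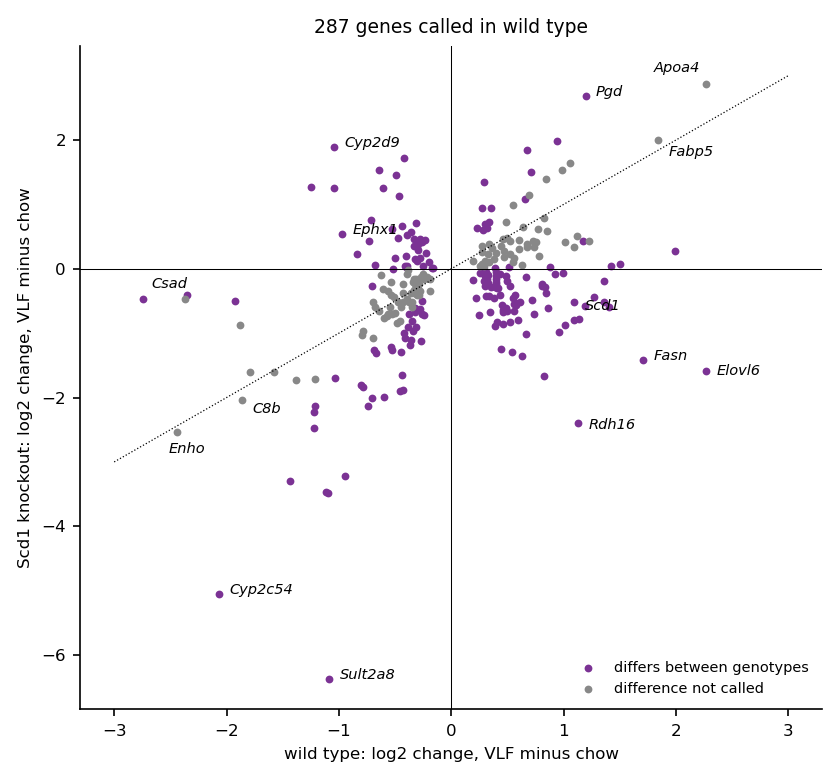
Diet effect in knockout liver (y axis, log2) against the diet effect in wild-type liver (x axis, log2) for the 287 genes called in wild type, purple where the difference between genotypes was called (182 genes) and grey where it was not, with a dotted line at equal effects. Fasn and Elovl6 lie to the right and below 0, Apoa4 and Enho lie close to the line, and Sult2a8 and Cyp2c54 lie far below it.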

How the data were processed

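Liver RNA of individual mice was hybridized to Mouse 430 2.0 arrays, 5 per genotype and diet. The authors deposited probe set intensity values on a linear scale; per the submitters' processing notes the tools included MAS5 and RMA, but no source used here says which gave these values. Arrays were scaled to a common median of 34.43, floored at 16, log2-transformed and quantile-normalized, then fitted with limma 3.58.1 (R 4.3.3) as 4 group means over 20 arrays. P-values were adjusted (Benjamini-Hochberg) over 45037 probe sets, without the 64 controls. A gene was read from its brightest probe set; 34945 probe sets had 1 gene, 932 several and 9160 none in the platform annotation, and 16188 of 18193 genes rose above the floor. Array measures were compared with exact permutation tests. Genes were named if among the 10 largest calls in each direction whose 5 against 5 livers did not overlap, if among the up to 3 called genes of a list with the lowest p, or if in a set of lipid and bile acid genes, of which 1 is not reported here; others are marked where they appear. Members and gene lists were chosen with earlier results of these data known, and lists share genes. The test was checked on simulated data whose noise was independent between probe sets and arrays. That check does not cover livers that deviate over many genes, or array quality that differs between the diets. Alternatives covered scaling, floor, probe set rule, variance model, replicate block and leaving out each liver. Each limma p-value sets a change against the spread of livers within all 4 groups, knockout livers included.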

Additional observations from a re-analysis of the deposited data

Results flagged for a closer look

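Some livers stood far from the other 4 of their group in a gene or marker sum named in the report (Dixon's test at 95%). Chance gives such a gap in about 1 of 20 groups, and 12 of 186 groups tested had one. Chow liver 4 was the lowest for Csad at 536 and for Dnase2a at 526, genes that followed each other across livers. Chow liver 5 was the highest for C8b at 1659.9 and for Baat at 1094 and the lowest for Cyp7b1 at 408 and for Per2 at 45.1. Chow liver 3 was the lowest for Cd74 at 430.1, and chow liver 2 the lowest for Pnpla3 at 34.0. VLF liver 4 was the highest for Cyp3a44 at 227, and VLF liver 5 the lowest for Fgf21 at 58.0. VLF liver 5 was also the highest for the summed pancreas markers at 4213, and VLF liver 3 was the lowest for Xist at the floor of 16.

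The diet effect differed between wild-type and knockout liver for 57 of the 78 named genes (limma interaction, adjusted p under 0.05). Over all measured genes the share was 27.2%. The 2 cannot be compared, because most named genes were picked for a wild-type diet effect, which is part of the difference. The values that follow are the log2 effect in wild type minus that in the knockout. It was above 0 for 39 genes: Elovl6 3.85, Mfsd2a 1.72, Fasn 3.13, Dntt 1.43, Acaca 1.99, Pklr 1.55, Me1 1.88, Noct 1.71, Cyp2c54 2.98, Pdha1 0.38, Cyp7b1 1.26, Cyp27a1 0.57, Baat 0.68, Per2 1.22, C1ra 0.85, Sult5a1 0.91, Sult2a8 5.28, Tecr 1.01, Elovl5 1.06, Scd1 1.61, Ces2a 1.86, Acsm1 1.40, Fabp2 1.77, Cyp3a44 1.48, Tsc22d3 1.69, Pygl 1.02, Khk 0.85, Onecut1 1.37, Fetub 1.00, Phyh 0.82, Uqcrb 0.31, Gpam 0.79, Srebf1 1.80, Mlxipl 1.32, Fads2 1.94, Cyp7a1 2.33, Cyp8b1 3.86, Cpt1a 0.92 and Pck1 0.73. It was below 0 for 18 genes: Csad -2.28, Dnase2a -1.94, Fam25c -1.43, Pdia6 -1.09, Calr -0.69, Gstp1 -1.59, Abcc3 -1.07, Hspb1 -2.30, Fth1 -0.40, Apoc2 -0.80, Lyz2 -1.86, Cyp2d9 -2.94, Tkt -0.43, Pgd -1.49, Gss -1.47, Scd2 -1.59, Pdk4 -2.94 and Ppargc1a -1.26. A positive value can stand for a rise in wild type with a fall in the knockout, as for Elovl6, or for a fall that was larger in the knockout, as for Sult2a8. Scd1 is the deleted gene: its knockout signal of 45.9 on chow and 31.5 on the VLF diet is near the array median of 34.43, so its value does not compare diet effects on an intact gene.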

How the results depend on the processing

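In wild-type liver 145 genes were called up and 142 down. Up calls numbered 29 with hybridization-control scaling, 93 with only the wild-type arrays, 257 with genes of mean log2 intensity of at least 7, 226 with the mean of a gene's probe sets, 245 with array weights and 5 with the actin ratio as covariate. Down calls numbered 21, 95, 272, 194, 260 and 7 under the same settings, and 57 with median scaling. Leaving out a liver gave 60 to 151 up and 69 to 134 down. The median of all genes moved by less than 0.1 under either scaling. The replicate numbers shared by the groups are not stated to mean a common cage, litter or day, and same-numbered livers did not deviate together (correlations 0.101, 0.026, -0.080, -0.25 and 0.045); a fit with the replicate block gave 111 up and 113 down. The actin covariate and the fit without VLF livers 3 and 5 were chosen after seeing the data; the latter gave 124 up and 111 down. Genes that were not called turned direction in some settings. With the actin covariate Mlxipl was at 0.106, Cpt1a at -0.045, Pdk4 at -0.63, Fgf21 at -0.14 and Insig2 at -0.37. Ppargc1a was at -0.094 with the mean of probe sets, -0.018 with array weights, -0.12 without VLF livers 3 and 5 and -0.089 to 0.226 over the fits with a liver left out. Insig2 was at -0.030 with array weights and at -0.022 to 0.203 over the fits with a liver left out. The cause of these shifts was not tested. The number of arrays limits the precision, and probe sets near the floor of 16 can show only part of a change.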

Other observations

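The genes that follow were called and are not named in the report; they were picked after their values were seen, and some belong to the detoxification groups described there. The aldehyde oxidases Aox3 and Aox1 fell by 1.22 and fell by 0.71 (limma, adjusted p = 0.000929 and 0.00151). Aox3 read 1937, 1815, 1843, 1519 and 1325 in the chow livers and 632, 843, 657, 567 and 949.6 in the VLF livers, without overlap. The epoxide hydrolase Ephx1 fell by 0.97 (adjusted p = 0.000336) and read 3329, 4045, 3412, 3147 and 2607 in the chow livers and 1888, 1550.3, 1360.3, 1931 and 1674 in the VLF livers; in the knockout it changed by 0.53 ± 0.11, a difference of -1.51 ± 0.16 (adjusted p = 1.83e-06). Ugdh, which makes the sugar donor for glucuronidation, fell by 0.64 (adjusted p = 0.0335), and Osgin1 fell by 1.25 (adjusted p = 0.0286). With a liver left out they were called in 3 and 4 of 10 fits, at adjusted p up to 0.0885 and 0.0945. The arachidonate epoxygenase Cyp2c23 fell from 4451 ± 289 to 2136 ± 543 (-1.10 ± 0.14, adjusted p = 0.000929). The retinol dehydrogenase Rdh16 went the other way and read 398, 346, 367, 465 and 358 in the chow livers and 989.8, 633, 867, 1057 and 735 in the VLF livers (1.13 ± 0.15, adjusted p = 0.00143), while it changed by -2.39 ± 0.15 in the knockout (difference 3.52 ± 0.22, adjusted p = 2.76e-09).

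Lifr, the receptor for leukemia inhibitory factor, read 2744, 2939, 2389, 2181 and 2247 in the chow livers and 1066, 1604, 1177, 821 and 1205 in the VLF livers (-1.11 ± 0.17, adjusted p = 0.00230), with all VLF livers below all chow livers. The peptidases Enpep and Mme rose by 0.63 and 0.82 (adjusted p = 0.00159 and 0.0139), each without overlap; Mme was called in 9 of 10 fits with a liver left out (adjusted p up to 0.0505). Mpc1, a subunit of the mitochondrial pyruvate carrier, rose by 0.38, from 2303 ± 209.7 to 2999 ± 158 (adjusted p = 0.00640). All of these kept their direction with the actin ratio as covariate, and none of them was called in that fit.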
